A study of Mus musculus with 7 samples.

Results

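The genes described here are 30 genes of glycolysis and of the response to low oxygen, chosen by name. They are 30 of the 51912 rows of the count table, and each of the 30 symbols was matched to 1 Ensembl gene identifier. They comprise 13 enzymes of glycolysis, 3 genes of glucose entry and flux control (Slc2a1, Pfkfb3, Pdk1), 2 secreted signals (Vegfa, Adm), 3 dioxygenases (Egln1, Egln3, Kdm3a), 2 collagen hydroxylase subunits (P4ha1, P4ha2), 3 mitochondrial proteins (Bnip3, Bnip3l, Higd1a) and 4 other hypoxia-induced genes (Car9, Ankrd37, Ndrg1, Ddit4). All 30 had enough counts to be tested.

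The transcripts came from pancreatic islets of db/db mice, a model of obesity and diabetes caused by loss of the leptin receptor. An adeno-associated virus (AAV) had been given for adipsin (AAV-Adipsin, 3 mice) or for green fluorescent protein (AAV-GFP, 4 mice). The islets were isolated 4 weeks later and cultured for 12 hours, and the design text states that each mouse is its own biological replicate and that serum glucose was then similar in both groups. The db/db genotype, an AAV vector and the culture are shared by both groups, and no mouse without a vector or of another genotype is part of the comparison. The promoter and capsid of the vectors and the age and sex of the mice are not stated here. The comparison asks which islet transcripts differ when adipsin is raised. Adipsin (complement factor D) is a secreted protease of the alternative complement pathway.

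Glycolysis turns glucose into pyruvate in the cytosol, and in beta cells its rate couples blood glucose to ATP and to insulin release. When oxygen is short, prolyl hydroxylases no longer mark the alpha subunits of the hypoxia-inducible factors (HIF) for destruction, and HIF binds the letters ACGTG or GCGTG in front of its targets. Many glycolysis enzymes and the other genes described here are known HIF targets. Isolated islets are cut off from their blood supply, so oxygen can become limiting in culture.

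Total counts per library ran from 29601707 to 43997400, and the 30 genes together took 0.346% to 0.432% of them. Values below are CPM, counts scaled to a library of standard size with factors from the trimmed mean of M values. The detection floor, set at 3 counts, corresponded to 0.0667 to 0.104 CPM, and all 30 genes had counts in every library. Cfd, the adipsin gene, had 839 to 3965 counts in AAV-Adipsin libraries and 0 to 1 in AAV-GFP libraries. All 8 beta-cell markers were present in every library, with summed levels of 163015 to 203339 CPM in AAV-Adipsin and 172023 to 202046 CPM in AAV-GFP. Markers of other cells were also present. The 11 acinar markers, genes of digestive enzyme cells, summed to 3199 to 12215 CPM in AAV-Adipsin and 2608 to 17016 CPM in AAV-GFP. The 8 endothelial markers summed to 561 to 663 CPM in AAV-Adipsin and 454 to 720 CPM in AAV-GFP. The 8 macrophage markers summed to 128 to 280 CPM in AAV-Adipsin and 115 to 173 CPM in AAV-GFP, and the 8 stellate markers to 155 to 213 CPM in AAV-Adipsin and 92.1 to 348 CPM in AAV-GFP. The 5 alpha-cell markers summed to 8339 to 9440 CPM in AAV-Adipsin and 6414 to 9417 CPM in AAV-GFP, the 3 delta-cell markers to 600 to 637 CPM in AAV-Adipsin and 485 to 961 CPM in AAV-GFP, and the 5 duct markers to 1278 to 1830 CPM in AAV-Adipsin and 1268 to 1737 CPM in AAV-GFP. No marker of these lists was at 0 in any library. In whole islets, fewer cells of a type and less RNA per cell cannot be told apart.

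The libraries also differed by how they were described. AAV-Adipsin 1 and AAV-GFP 1 were described by the name of their treatment (treatment-named below), and the other 5 by a db number (db-numbered). What this difference in naming reflects is not stated in the labels. It went with a large difference over the whole table and was therefore treated as a comparison of its own.

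The promoters of the genes show how the HIF core letters are placed in front of them. Windows of 300 bases, 250 before and 50 after the start of transcription, were taken from RefSeq on GRCm38.p6 for 28 of the 30 genes. Bnip3l and Ndrg1 had no entry. A window was searched on both strands for ACGTG and GCGTG, which read CACGT and CACGC on the other strand, and matches that overlap were counted as 1 site. At least 1 site was present in 32 of the 42 windows of these genes (76.2%), against 14380 of 32851 windows of all genes (43.8%). At least 2 sites were present in 54.8% of the windows of these genes, against 17.3% of all windows. The windows also differed in base composition, with a median GC content of 61.7% for these genes and 52.7% for all windows, and the part of this in the count of sites was not tested. The genes were chosen by name and many are known HIF targets, so the share of windows with a site is not independent of that choice. Some genes had more than 1 window, with 4 for Pfkm, so the 42 windows are not independent of each other. Of the 28 genes, 25 had a site in some window. Gpi1, Tpi1 and Eno2 had these letters in none of their windows.

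The 4 sequences below show the 2 ends of the spread between libraries described further on, and were chosen after the values were seen. Car9 varied most of the 30 genes, Pgk1 and Bnip3 varied more than the median gene, and Egln1 varied least. Capitals mark the core letters, and each sequence is written 5′ to 3′ on the strand of its gene.
Car9, chr4:43506776-43507075, plus strand: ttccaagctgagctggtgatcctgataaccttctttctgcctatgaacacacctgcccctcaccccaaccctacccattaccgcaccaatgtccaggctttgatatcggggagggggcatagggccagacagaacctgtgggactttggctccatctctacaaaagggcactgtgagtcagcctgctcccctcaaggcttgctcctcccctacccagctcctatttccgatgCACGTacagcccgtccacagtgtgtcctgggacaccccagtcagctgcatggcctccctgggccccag
Pgk1, chrX:106186850-106187149, plus strand: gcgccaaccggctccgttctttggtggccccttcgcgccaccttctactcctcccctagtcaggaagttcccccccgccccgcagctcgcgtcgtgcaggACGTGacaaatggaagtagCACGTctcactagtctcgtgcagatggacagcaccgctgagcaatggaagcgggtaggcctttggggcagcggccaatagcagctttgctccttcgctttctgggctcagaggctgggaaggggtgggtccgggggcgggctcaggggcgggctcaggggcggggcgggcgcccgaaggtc
Bnip3, chr7:138909457-138909756, minus strand: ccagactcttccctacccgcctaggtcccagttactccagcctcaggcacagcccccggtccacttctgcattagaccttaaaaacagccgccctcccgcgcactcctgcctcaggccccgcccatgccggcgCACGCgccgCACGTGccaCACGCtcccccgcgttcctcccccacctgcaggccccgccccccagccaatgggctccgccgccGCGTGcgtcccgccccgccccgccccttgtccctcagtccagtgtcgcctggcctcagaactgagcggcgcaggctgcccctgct
Egln1, chr8:124949205-124949504, minus strand: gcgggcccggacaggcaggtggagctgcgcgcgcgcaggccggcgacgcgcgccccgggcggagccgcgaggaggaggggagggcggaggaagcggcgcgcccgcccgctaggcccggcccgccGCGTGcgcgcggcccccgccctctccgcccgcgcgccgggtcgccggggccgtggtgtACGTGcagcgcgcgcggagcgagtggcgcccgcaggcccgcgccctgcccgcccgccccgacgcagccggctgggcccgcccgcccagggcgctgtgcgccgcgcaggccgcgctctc
The 1 site of Car9 lay 18 bases upstream of the start. Pgk1 had cores 150 and 131 bases upstream. Bnip3 had 4 sites, the farthest 117 and the nearest 35 bases upstream, and in the second of them the letters of both strands overlap as CACGTG. Egln1 had cores 126 and 68 bases upstream. The gene that varied most therefore had 1 site, and the gene that varied least had 2. A match of these letters is a description of the window and does not show binding.

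Levels were compared between genes per kilobase of the longest coding transcript, as means over the 7 libraries. Aldoa, the main aldolase, stood highest at 484 CPM per kilobase, and its lowest library (416) was above the highest library of Pkm (308). Pkm, the muscle-type pyruvate kinase gene, at 274 CPM per kilobase, and Gapdh, the glyceraldehyde phosphate dehydrogenase, at 269 CPM per kilobase, overlapped in range. Tpi1, the triose phosphate isomerase, followed at 111 CPM per kilobase, and its highest library (139) was below the lowest of Gapdh (208). From Tpi1 downward, neighbours in the order overlapped in range, except Aldoc (lowest library 3.7) and Higd1a (highest library 2.59). Vegfa, which encodes vascular endothelial growth factor A and is known to be made by beta cells to maintain islet capillaries, came next at 100 CPM per kilobase, above Eno1 (81.3) and Gpi1 (74.5). Of the hypoxia-induced genes outside the enzymes, Ndrg1, a stress-response protein, had 61 CPM per kilobase, Ddit4, an inhibitor of the growth kinase mTOR, 50.7, and Bnip3, a mitophagy receptor, 35.2. The lowest were Higd1a at 2.1, Car9 at 1.17 and Adm at 0.218 CPM per kilobase. The order depended on the length used. With the union of all exons as length, an alternative added after seeing the data, Vegfa at 80.7 CPM per kilobase stood above Tpi1 at 65, while Aldoa, Pkm and Gapdh kept the top 3 places. Under both lengths Car9 and Adm, known for strong induction by low oxygen, took the last places.

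Some of these levels carry a limit from annotation. Exons of 12 of the 30 genes overlap an exon on the opposite strand, by up to 748 bases in Pfkp, and the strand setting of the counting is not given. Pfkm and Pkm overlap another annotated gene on their own strand. Gapdh, Pgk1, Pgam1, Tpi1, Aldoa and Eno1 have near-identical processed copies in the mouse genome, so their counts are uncertain to the extent that the counting split reads among copies.

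None of the 30 genes passed the test between AAV-Adipsin and AAV-GFP, and the fold changes of most were small. With edgeR's quasi-likelihood test and Benjamini-Hochberg adjustment over 16504 genes, 1 gene (Cfd) passed an adjusted p of 0.05, which is 0.00606% of the genes tested, and 0 of the 30 genes did, all with an adjusted p of 1. At an unadjusted p below 0.05, 1 of the 30 genes (Bnip3l) passed, or 3.33%, against 191 of all genes (1.16%). DESeq2 and limma-voom also called 0 of the 30. The median log2 fold change, AAV-Adipsin over AAV-GFP, was -0.06 over the 30 genes and -0.01 over all genes tested. The 95% interval of the fold change lay within a 2-fold difference in either direction for 28 of the 30 genes. Car9 and Adm, the least expressed, were the exceptions, at -1.72 to 2.26 and -0.65 to 1.33 on the log2 scale.

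**Figure D1:**
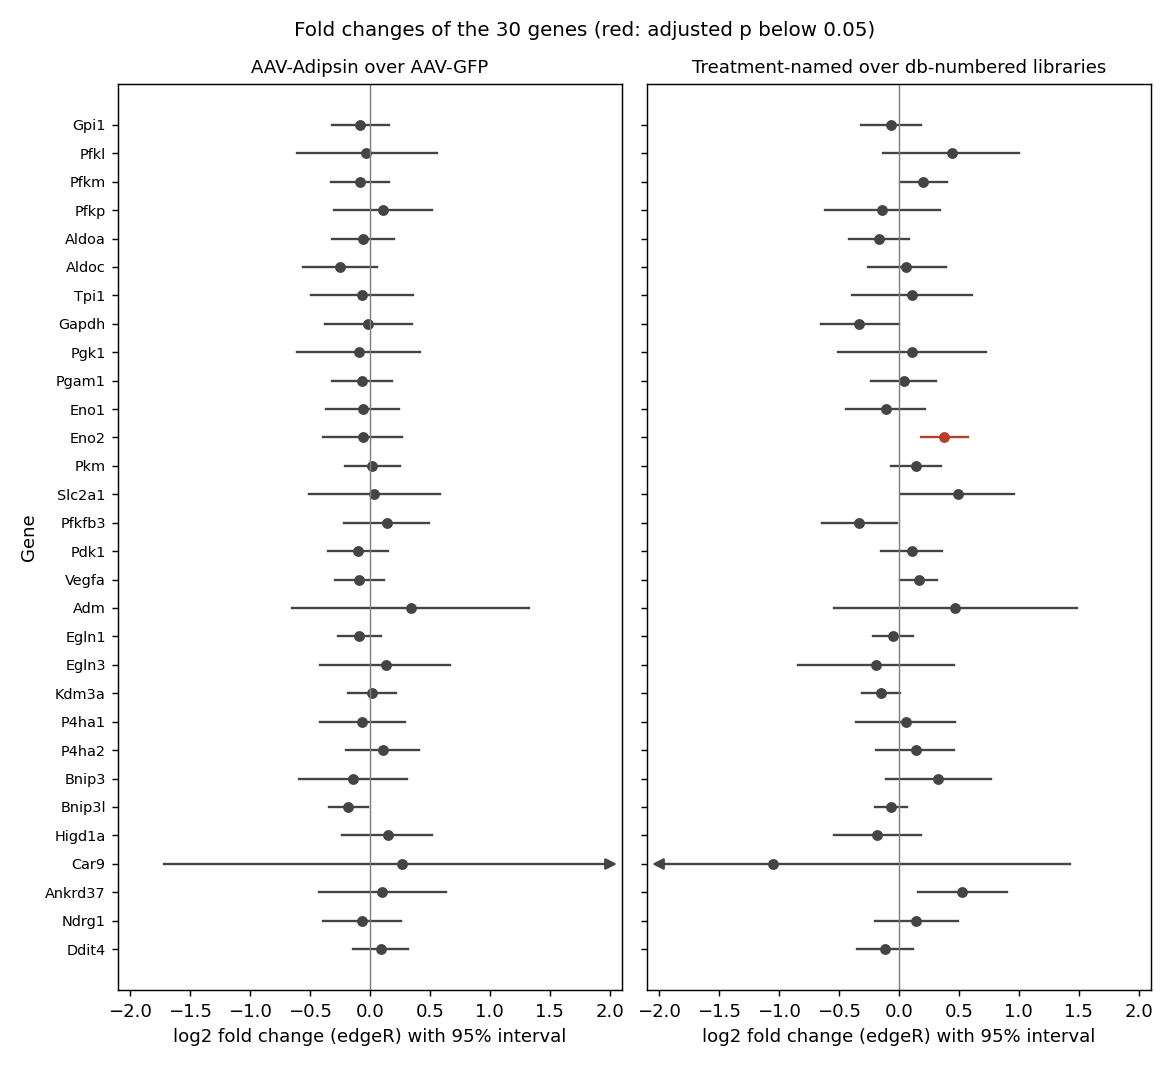
Log2 fold change (x axis) of each of the 30 genes (y axis) for AAV-Adipsin over AAV-GFP (left) and for treatment-named over db-numbered libraries with the treatment in the model (right), with points for edgeR estimates and lines for 95% intervals (arrowheads mark intervals that run past the axis). On the left every interval but that of Bnip3l (-0.34 to -0.02) includes 0, and on the right Eno2 (0.38, red) is the gene past an adjusted p of 0.05.

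Among the 13 enzymes the fold changes were small. They ran from -0.25 for Aldoc to 0.11 for Pfkp with a median of -0.06, and the intervals lay between -0.61 and 0.56. Of the enzymes 11 of 13 were below 0, against 8883 of all 16504 genes tested, and whether these shares differ was not tested. The direction did not hold without the treatment-named libraries, where the median of the 13 enzymes was 0.06. Gpi1, the glucose phosphate isomerase, had 184, 224 and 216 CPM in AAV-Adipsin against 229, 192, 239 and 219 CPM in AAV-GFP. Its fold change was -0.08 (SE 0.11, unadjusted p = 0.466 by edgeR's quasi-likelihood test), and the groups overlapped.

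Phosphofructokinase commits glucose to glycolysis and is built from 3 kinds of subunit. Pfkl, the liver type, had 83.1, 87 and 78.5 CPM in AAV-Adipsin against 123, 60.2, 96.3 and 58 CPM in AAV-GFP. The AAV-Adipsin libraries lay close together inside a wide AAV-GFP range. Pfkm, the muscle type, had 95.5, 77.7 and 83.1 CPM in AAV-Adipsin against 98.7, 95.6, 89.2 and 78.9 CPM in AAV-GFP. Pfkp, the platelet type, had 54.6, 84.3 and 85.4 CPM in AAV-Adipsin against 78.1, 53.8, 76.1 and 68.3 CPM in AAV-GFP. In Pfkp the lowest and the highest AAV-Adipsin libraries nearly spanned the AAV-GFP range. The fold changes were -0.03 (SE 0.25) for Pfkl, -0.08 (SE 0.11) for Pfkm and 0.11 (SE 0.18) for Pfkp.

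Aldolase splits the sugar into 2 triose phosphates, which Tpi1 interconverts. Aldoa had 645, 804 and 746 CPM in AAV-Adipsin against 730, 680, 875 and 767 CPM in AAV-GFP. Aldoc, the brain-type aldolase, had 10.3, 11.1 and 10.9 CPM in AAV-Adipsin against 14.1, 10.7, 14.6 and 11.7 CPM in AAV-GFP. Aldoc had the largest fold change of the enzymes, -0.25 (SE 0.14, unadjusted p = 0.1, adjusted p = 1 by edgeR), and AAV-GFP 2 overlapped with the AAV-Adipsin libraries. Tpi1 had 154, 201 and 168 CPM in AAV-Adipsin against 224, 142, 217 and 146 CPM in AAV-GFP. Again 2 AAV-GFP libraries were above and 2 below every AAV-Adipsin library.

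Gapdh and Pgk1, the phosphoglycerate kinase, carry out the next steps, and Pgk1 yields the first ATP. Gapdh had 296, 458 and 385 CPM in AAV-Adipsin against 350, 335, 453 and 396 CPM in AAV-GFP. Pgk1 had 42.3, 58 and 48.5 CPM in AAV-Adipsin against 66.5, 41, 66.3 and 37.6 CPM in AAV-GFP. The AAV-GFP values of Pgk1 formed a high pair, AAV-GFP 1 and 3, and a low pair, AAV-GFP 2 and 4, and the AAV-Adipsin libraries lay between them. Its fold change was -0.09 (SE 0.23, 95% interval -0.61 to 0.42).

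Pgam1, Eno1, Eno2 and Pkm complete the pathway to pyruvate. Pgam1, the phosphoglycerate mutase, averaged 31.3 ± 2.16 CPM in the 3 AAV-Adipsin libraries and 32.7 ± 3.86 CPM in the 4 AAV-GFP libraries (mean ± SD, here and below). Eno1, the ubiquitous enolase, averaged 161 ± 23.5 CPM in AAV-Adipsin and 168 ± 21.9 CPM in AAV-GFP. Both ranges overlapped. Eno2, the enolase of neurons and endocrine cells, had 55.3, 39.4 and 44.1 CPM in AAV-Adipsin against 57.8, 49.3, 45 and 41 CPM in AAV-GFP. In each treatment the highest library was the treatment-named one. Pkm averaged 673 ± 23.9 CPM in AAV-Adipsin and 664 ± 72.6 CPM in AAV-GFP, with a fold change of 0.02 (SE 0.1).

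**Figure D2:**
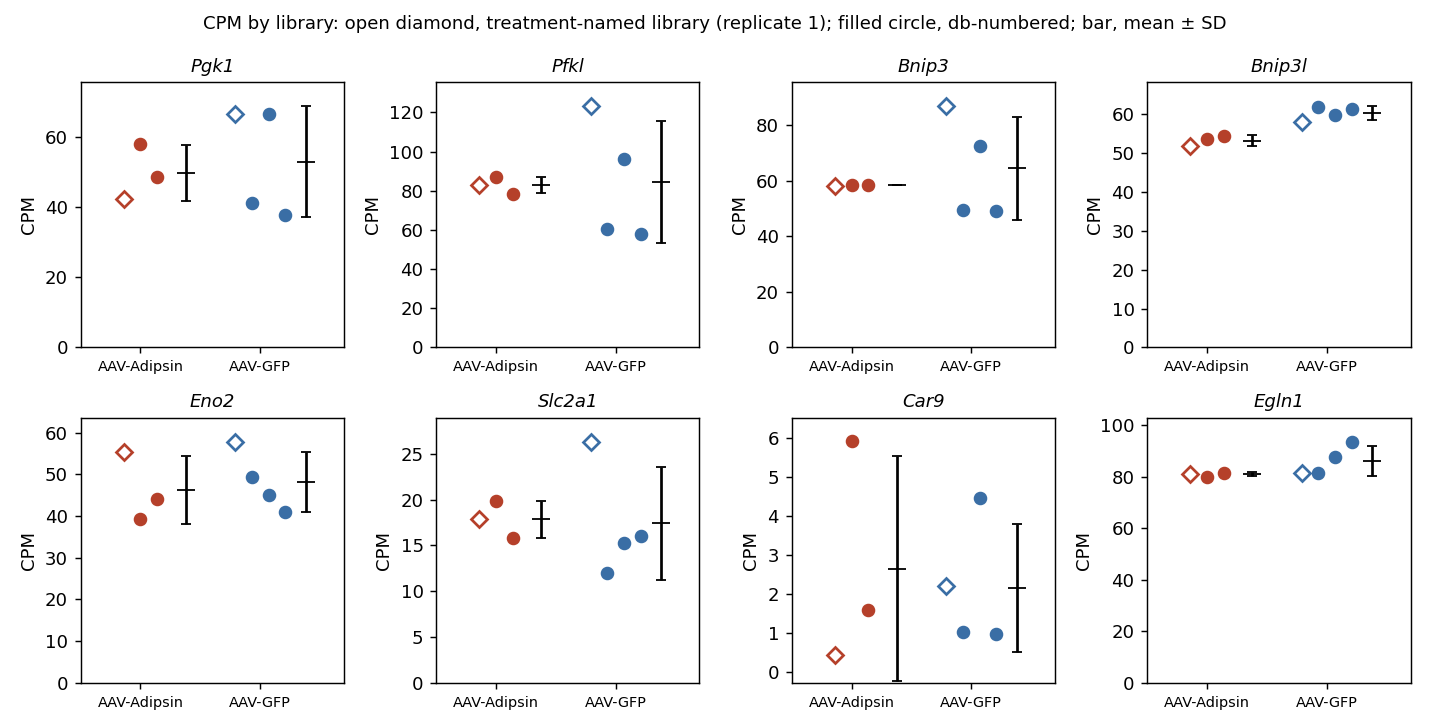
CPM (y axis) of 8 of the genes in each library, with AAV-Adipsin left of AAV-GFP, open diamonds for treatment-named and filled circles for db-numbered libraries, and bars for mean ± SD. Bnip3l is the gene whose groups do not overlap, Pgk1, Pfkl and Bnip3 have AAV-GFP libraries on both sides of the AAV-Adipsin ones, and Eno2 is highest in both treatment-named libraries.

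The balance of isoenzymes within a step was read as each gene's share of the step's counts per kilobase. Pfkl held 31.8 ± 1.7% of phosphofructokinase in the 3 AAV-Adipsin libraries and 31.2 ± 6.1% in the 4 AAV-GFP ones (mean ± SD). Pfkm held 42.5 ± 5.2% in AAV-Adipsin and 45.1 ± 6.1% in AAV-GFP. Pfkp held 25.7 ± 5.7% in AAV-Adipsin and 23.7 ± 3.1% in AAV-GFP. The split among the subunits depended on the length used. With the union of all exons as length, Pfkl held 28.5 ± 1.82% in AAV-Adipsin and 27.5 ± 6.03% in AAV-GFP, Pfkm held 58.6 ± 4.43% in AAV-Adipsin and 61 ± 6.24% in AAV-GFP, and Pfkp held 12.9 ± 3.33% in AAV-Adipsin and 11.6 ± 1.71% in AAV-GFP. Aldolase was nearly all Aldoa under both lengths. Aldoc held 0.815 ± 0.06% in AAV-Adipsin and 0.921 ± 0.1% in AAV-GFP, and Eno2 held 17.5 ± 4.6% of enolase in AAV-Adipsin and 17.4 ± 3.1% in AAV-GFP. With the union length Aldoc held 1.3 ± 0.095% in AAV-Adipsin and 1.47 ± 0.157% in AAV-GFP. With the longest coding transcript as length, the exact two-sided permutation p over the 35 divisions of the libraries was 0.914 for Pfkl, 0.629 for Pfkm, 0.629 for Pfkp, 0.171 for Aldoc and 0.914 for Eno2. The smallest p this design allows is 0.0571, so these 5 tests could not reach 0.05.

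**Figure D3:**
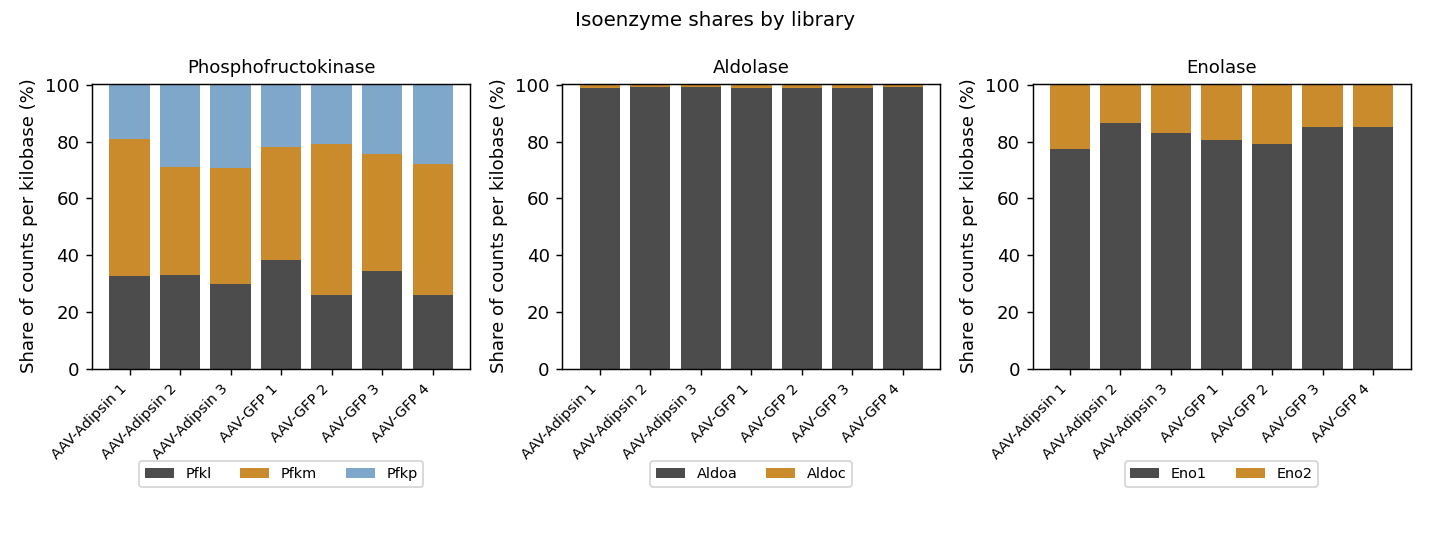
Stacked bars give the share (y axis, percent of the step's counts per kilobase of the longest coding transcript) of each isoenzyme of phosphofructokinase, aldolase and enolase in each library (x axis), AAV-Adipsin libraries left of AAV-GFP ones. Pfkm holds 38.2% to 53.3% of phosphofructokinase, Aldoc at most 1.06% of aldolase, and Eno2 13.4% to 22.5% of enolase.

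No gene of glucose entry or flux control passed the test between the treatments. Slc2a1 encodes the glucose transporter GLUT1, Pfkfb3 makes the activator of phosphofructokinase, and Pdk1 inhibits pyruvate dehydrogenase and so keeps pyruvate out of the mitochondrial cycle. Slc2a1 had 17.9, 19.8 and 15.8 CPM in AAV-Adipsin against 26.3, 12, 15.3 and 16 CPM in AAV-GFP, where 1 AAV-GFP library (replicate 1) was above all others. Pfkfb3 had 43.4, 64.3 and 59.5 CPM in AAV-Adipsin against 46.2, 54.6, 43.3 and 58.8 CPM in AAV-GFP. Pdk1 had 63.8, 67.3 and 68.3 CPM in AAV-Adipsin against 81.7, 68.5, 75 and 59.8 CPM in AAV-GFP. The fold changes of the 3 genes were 0.03 (SE 0.24), 0.14 (SE 0.16) and -0.10 (SE 0.11), and all ranges overlapped.

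The secreted signals stood at opposite ends of expression. Vegfa had 351, 316 and 335 CPM in AAV-Adipsin against 395, 342, 347 and 334 CPM in AAV-GFP. Its fold change was -0.09 (95% interval -0.29 to 0.12), one of the narrower intervals. Adm, the vasodilator peptide adrenomedullin, had 13, 14 and 11 counts in AAV-Adipsin against 19, 5, 12 and 5 counts in AAV-GFP. With so few counts and few mice, the interval of its fold change was wide, -0.65 to 1.33 on the log2 scale. Differences anywhere in this interval remain possible.

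Of the oxygen-dependent dioxygenases, Egln1 and Kdm3a had the smallest spread of the 30 genes, with an SD of log2 CPM of 0.08 and 0.09. Egln1 and Egln3 are the prolyl hydroxylases PHD2 and PHD3, which mark HIF for destruction and are HIF targets themselves, and Kdm3a removes methyl groups from histone H3. Egln1 had 81.3, 80.1 and 81.6 CPM in AAV-Adipsin against 81.6, 81.5, 87.7 and 93.6 CPM in AAV-GFP, with a fold change of -0.09 (95% interval -0.27 to 0.09). Kdm3a averaged 43.9 ± 2.99 CPM in AAV-Adipsin and 43.3 ± 2.95 CPM in AAV-GFP. Egln3 was more variable, with 17.2, 24.6 and 25.6 CPM in AAV-Adipsin against 21.6, 17.1, 14.6 and 29.1 CPM in AAV-GFP. In none of the 3 genes did the values separate the treatments.

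P4ha1 and P4ha2 encode the catalytic subunits that hydroxylate proline in collagen. P4ha1 had 95.5, 107 and 111 CPM in AAV-Adipsin against 125, 89.1, 134 and 89.9 CPM in AAV-GFP. P4ha2 had 41.3, 41.3 and 40 CPM in AAV-Adipsin against 42.9, 34.4, 44.4 and 30.1 CPM in AAV-GFP. In both genes AAV-GFP 1 and 3 were above and AAV-GFP 2 and 4 below the AAV-Adipsin libraries, as in Pgk1 and Tpi1.

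Bnip3l was the 1 gene of the 30 whose values did not overlap between the treatments. Bnip3l and Bnip3 are receptors in the outer mitochondrial membrane that recruit the autophagy machinery, and Bnip3l, also called NIX, lies on the minus strand of chromosome 14 from 66985239 to 67008877 (GRCm38). It had 51.6, 53.5 and 54.2 CPM in AAV-Adipsin against 57.8, 61.8, 59.7 and 61.1 CPM in AAV-GFP. The means were 53.1 ± 1.35 CPM in the 3 AAV-Adipsin libraries and 60.1 ± 1.77 CPM in the 4 AAV-GFP ones (mean ± SD), a log2 fold change of -0.18 (SE 0.07, 95% interval -0.34 to -0.02). The unadjusted p was 0.0313 and the adjusted p was 1 by edgeR's quasi-likelihood test, so the difference did not pass over all genes. The difference was -0.16 between the treatment-named libraries and -0.18 between the db-numbered ones. One gene of 30 is 3.33%, against 451 of 16504 genes (2.73%) whose groups did not overlap, 260 of them (1.58%) lower in AAV-Adipsin, so the count for these genes was near the background. Bnip3 had 58.3, 58.6 and 58.6 CPM in AAV-Adipsin against 86.8, 49.4, 72.6 and 49.1 CPM in AAV-GFP. The AAV-Adipsin values of Bnip3 were nearly equal, while the highest of all libraries was 1.77 times the lowest. Higd1a, which protects the respiratory chain, averaged 4.97 ± 0.84 CPM in AAV-Adipsin and 4.48 ± 0.244 CPM in AAV-GFP.

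Car9 was the most variable of the 30 genes. It encodes carbonic anhydrase IX, a cell surface enzyme that is a common marker of hypoxic tissue, and lies on the plus strand of chromosome 4 from 43506966 to 43513729 (GRCm38). It had 17, 187 and 63 counts in AAV-Adipsin against 99, 31, 172 and 28 counts in AAV-GFP, or 0.441, 5.93 and 1.58 CPM in AAV-Adipsin against 2.2, 1.01, 4.47 and 0.966 CPM in AAV-GFP. The highest library was 12.1 times the lowest, and both were AAV-Adipsin. Its SD of log2 CPM over the 7 libraries was 1.26, the 99th percentile of all genes tested. The fold change of 0.27 (SE 0.86) was -1.10 without AAV-Adipsin 2 and 0.90 without AAV-GFP 3. AAV-Adipsin 2 and AAV-GFP 3, the libraries with the most Car9, also had the highest acinar sums of their groups, 12215 and 17016 CPM. The order did not hold throughout. AAV-GFP 2, with 1.01 CPM of Car9, had an acinar sum of 8698 CPM, and AAV-GFP 1, with 2.2 CPM, had 5019 CPM. AAV-Adipsin 2 also had the highest macrophage and duct sums, 280 and 1830 CPM, while AAV-GFP 3 had 119 and 1372 CPM. The part of these sums in the result was not tested.

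Ankrd37, Ndrg1 and Ddit4 completed the group of other hypoxia-induced genes. Ankrd37, an ankyrin repeat protein, had 6.51, 4.95 and 4.55 CPM in AAV-Adipsin against 6.65, 3.86, 4.05 and 5.31 CPM in AAV-GFP. Ndrg1 averaged 172 ± 9.61 CPM in AAV-Adipsin and 180 ± 33 CPM in AAV-GFP, and Ddit4 averaged 92.2 ± 4.93 CPM in AAV-Adipsin and 86.6 ± 10.3 CPM in AAV-GFP. All 3 overlapped between the treatments.

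Many of the 30 genes varied between libraries of the same treatment. AAV-GFP 1 was the highest library for 12 of the 30 genes and for 7 of the 13 enzymes, and AAV-GFP 3 was the highest for 7 genes and 4 enzymes. AAV-GFP 2 was the lowest library for 10 genes, AAV-Adipsin 1 for 7 and AAV-GFP 4 for 6. The median enzyme deviated from its mean over the 7 libraries by -0.20, 0.10 and -0.04 on the log2 scale in AAV-Adipsin 1, 2 and 3, and by 0.17, -0.19, 0.21 and -0.04 in AAV-GFP 1, 2, 3 and 4. Of the 13 enzymes, 4, 10 and 3 were above their mean in AAV-Adipsin 1, 2 and 3, against 11, 2, 12 and 4 in AAV-GFP 1, 2, 3 and 4. Most of the enzymes thus stood on the same side of their mean in several libraries, and both treatments held libraries of either kind. These counts were not made over all genes tested. Whether the pattern is particular to the enzymes was therefore not tested. The spread between libraries had the size of that in the table as a whole. The median SD of log2 CPM was 0.20 for the enzymes, for the 17 other genes and for all genes tested. Among the 30 genes it ran from 0.08 for Egln1 to 1.26 for Car9. The acinar sum was highest in AAV-Adipsin 2 at 12215 CPM and AAV-GFP 3 at 17016 CPM, where the enzymes stood high. It was 8698 CPM in AAV-GFP 2, where they stood low, and 5019 CPM in AAV-GFP 1, where they stood high, and its part in the spread was not tested.

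**Figure D4:**
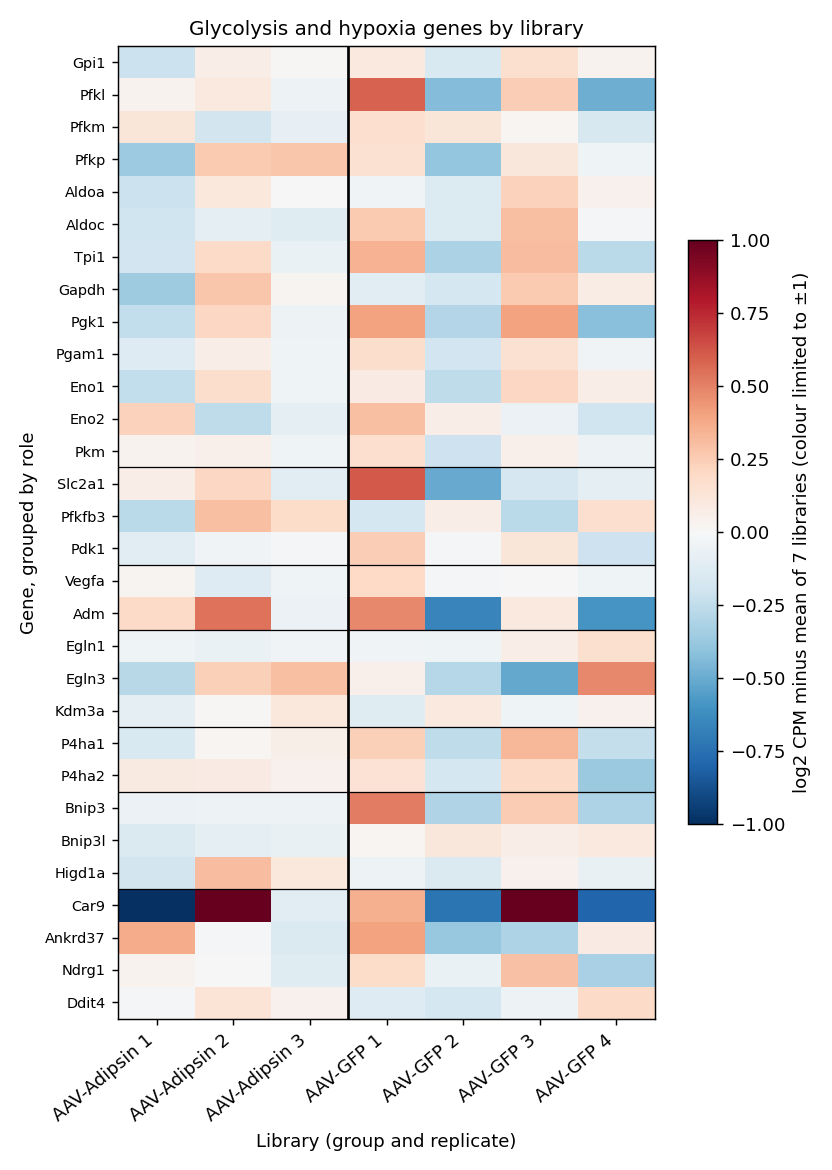
Colour gives log2 CPM minus the gene's mean over the 7 libraries (limited to 1 in either direction) for each of the 30 genes (rows, grouped by role) and each library (columns, AAV-Adipsin left of AAV-GFP). Most enzymes are above their mean in AAV-GFP 1 and 3 (11 and 12 of 13) and below it in AAV-Adipsin 1 and AAV-GFP 2 (4 and 2 of 13 above).

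The difference between the treatments had opposite signs in the 2 description styles for 21 of the 30 genes and 10 of the 13 enzymes. It had the same sign for 9 genes, among them Bnip3l, Aldoc, Vegfa and Ddit4. How many of all genes had opposite signs was not counted, so 21 of 30 has no background beside it. Between the treatment-named libraries, 28 of the 30 genes and all 13 enzymes were lower in AAV-Adipsin 1 than in AAV-GFP 1, with a median log2 difference of -0.32 for the enzymes. Over all genes tested, 50.3% were lower in AAV-Adipsin 1 and the median difference was 0. Between the db-numbered libraries, 7 of the 30 genes and 3 of the 13 enzymes were lower in AAV-Adipsin, with a median of 0.06 for the enzymes, against 50.9% of all genes. The treatment-named comparison is 1 library against 1 and has no replicate check of its own. In the interaction of treatment and description style, 0 of 16504 genes and 0 of the 30 were called by edgeR (0% of genes), and 135 genes (0.818%) and 2 of the 30 had an unadjusted p below 0.05. The interaction was below 0 for 24 of the 30 genes, against 8000 of all 16504, with a median of -0.34 over the 30 and 0.01 over all genes. It rests for every gene on the same 1 treatment-named library per treatment, so the 30 genes are not 30 separate observations. Pfkp and Slc2a1 had the smallest p of the 30 in this test. In Pfkp the log2 difference was -0.52 in the treatment-named pair and 0.37 in the db-numbered libraries (interaction -0.88, unadjusted p = 0.0165, adjusted p = 1 by edgeR). In Slc2a1 it was -0.55 in the treatment-named pair and 0.30 in the db-numbered libraries (interaction -0.85, unadjusted p = 0.0271, adjusted p = 1 by edgeR).

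The same test was read for description style itself, where 1 of the 30 genes, Eno2, was called. With the treatment in the model, 1616 genes (9.79%) differed between treatment-named and db-numbered libraries by edgeR's quasi-likelihood test, 696 higher (4.22%) and 920 lower (5.57%) in the treatment-named ones, and 1 of the 30 genes (3.33%) did. The values of treatment-named and db-numbered libraries did not overlap for 4 of the 30 genes (13.3%), against 37.6% of all genes. At an unadjusted p below 0.05 there were 7 of the 30, against 28.2% of all genes. Whether the shares differ was not tested. Mitochondrial transcripts took 1.13% to 1.22% of counts in the treatment-named libraries and 1.45% to 2.67% in the db-numbered ones, without overlap, and their part in the difference was not tested. Eno2, on the minus strand of chromosome 6 from 124760053 to 124769673, was the gene called. Its 55.3 CPM in AAV-Adipsin 1 and 57.8 CPM in AAV-GFP 1 exceeded all 5 db-numbered libraries, which ran from 39.4 to 49.3 CPM. The means were 56.5 CPM in the treatment-named libraries and 43.8 ± 3.84 CPM in the db-numbered ones (SD, n = 5), a log2 fold change of 0.38 (SE 0.09, 95% interval 0.18 to 0.58, adjusted p = 0.0363 by edgeR). The share of Eno2 in enolase was 19.4% to 22.5% in the treatment-named libraries and 13.4% to 20.7% in the db-numbered ones, so the shares overlapped. The log2 fold change of Eno2 stayed between 0.34 and 0.41 when each library was left out in turn, but its adjusted p by edgeR was 0.319 without AAV-Adipsin 1, 0.116 without AAV-Adipsin 2, 0.0813 without AAV-Adipsin 3, 0.305 without AAV-GFP 1 and 0.0816 without AAV-GFP 3. It was 0.0347 without AAV-GFP 2 and 0.00666 without AAV-GFP 4. The count of 1616 genes was 55 without AAV-Adipsin 1, 346 without AAV-Adipsin 2, 501 without AAV-Adipsin 3, 39 without AAV-GFP 1, 671 without AAV-GFP 3 and 4348 without AAV-GFP 4.

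Vegfa, Ankrd37 and Kdm3a were the other genes without overlap between the description styles. Vegfa averaged 373 CPM in the treatment-named libraries and 335 ± 11.6 CPM in the db-numbered ones, and Ankrd37 averaged 6.58 CPM in the treatment-named libraries and 4.55 ± 0.604 CPM in the db-numbered ones. Kdm3a averaged 40.4 CPM in the treatment-named libraries and 44.8 ± 1.98 CPM in the db-numbered ones. Ankrd37 had a log2 fold change of 0.53 (SE 0.16) with an adjusted p of 0.0765 by edgeR, 0.0449 by DESeq2 and 0.0488 by limma-voom. The adjusted p by edgeR was 0.149 for Vegfa and 0.194 for Kdm3a. Of the 8 marker lists, the alpha-cell list did not overlap between the description styles, with sums of 9417 to 9440 CPM in the treatment-named libraries and 6414 to 8881 CPM in the db-numbered ones. The sums of the other 7 lists overlapped. Its part in these differences was not tested.

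Other genes of the pathways, from fixed lists, were read from the same tests. None of 36 other glycolysis genes, 11 genes of the HIF machinery and 47 of 49 further hypoxia targets with enough counts passed the test between AAV-Adipsin and AAV-GFP by edgeR, with median log2 fold changes of -0.02, -0.02 and -0.01. At an unadjusted p below 0.05 there were 1, 1 and 0 of them. The smallest p of the first list belonged to Fbp2, the muscle fructose bisphosphatase, with 15.9 ± 2.24 CPM in AAV-Adipsin and 20.9 ± 4.41 CPM in AAV-GFP (-0.40, unadjusted p = 0.0493 by edgeR), ahead of Pdk2 (-0.17) and Adpgk (-0.21). Cited2, which competes with HIF for its coactivator, had 26.8, 26.6 and 28.4 CPM in AAV-Adipsin against 29.9, 32.1, 31.6 and 35.1 CPM in AAV-GFP (-0.24, SE 0.08, unadjusted p = 0.0203, adjusted p = 1 by edgeR). Its groups did not overlap, which was so for 451 of 16504 genes (2.73%). Cited2 was not alone in this among the listed genes, since Bhlhe41, named below, did not overlap either. Other listed genes did not overlap in the opposite direction, higher in AAV-Adipsin. Fbp1 had 8.01, 7.9 and 8.61 CPM in AAV-Adipsin against 7.38, 7.83, 5.61 and 7.42 CPM in AAV-GFP. Slc2a3 had 2.2, 2.13 and 2.18 CPM in AAV-Adipsin against 1.8, 1.85, 1.2 and 2.04 CPM in AAV-GFP. The share of the lists without overlap was not calculated. Hif1a, the alpha subunit of HIF, averaged 137 ± 19.5 CPM in AAV-Adipsin and 122 ± 9.97 CPM in AAV-GFP (0.17, unadjusted p = 0.175 by edgeR), and Vhl, which tags it for destruction, 34.4 ± 0.48 CPM in AAV-Adipsin and 36.6 ± 2.76 CPM in AAV-GFP. Among the further targets, Bhlhe41 (-0.18), Mxi1 (-0.22) and Fut11 (-0.21) had the smallest p, between 0.0651 and 0.0952 unadjusted by edgeR.

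Between the description styles, 3 of the 36 glycolysis genes, 1 of the 11 HIF machinery genes and 9 of the 47 targets passed the test by edgeR. These are 8.33%, 9.09% and 19.1% of the lists, against 9.79% of all genes, so the first 2 shares were near the background. Whether the share of the targets differs from the background was not tested. Slc2a2, the glucose transporter GLUT2 of beta cells, had 72 CPM in AAV-Adipsin 1 and 73 CPM in AAV-GFP 1, against 28.7 to 56.3 CPM in the db-numbered libraries (0.85, adjusted p = 0.0261 by edgeR). Eno3, the muscle enolase, rose (0.68, adjusted p = 0.0338) and Mpc1, a subunit of the mitochondrial pyruvate carrier, fell (-0.35, adjusted p = 0.0462) in the treatment-named libraries by edgeR. Hif1a fell to 111 CPM in the treatment-named libraries, against 135 ± 12 CPM in the db-numbered ones (-0.30, adjusted p = 0.0295 by edgeR). Of the targets, 3 rose and 6 fell. Hmox1, the stress-induced heme oxygenase, fell to 77.7 CPM in the treatment-named libraries, against 160 ± 25.5 CPM in the db-numbered ones (-1.06, adjusted p = 0.00326 by edgeR). The transcription factor subunit Fosl2 (-0.68), Pnrc1 (-1.10) and the Notch pathway factor Rbpj (-0.34) fell, and the kinase Dapk1 (0.57) and the glycogen-targeting subunit Ppp1r3c (0.60) rose. The 13 enzymes and the 17 other genes of the 30 each had a median log2 fold change of 0.06 in this comparison, against -0.01 over all genes.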

How the data were processed

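Per the labels' protocols, islet RNA was extracted with column kits and libraries were made with a stranded messenger RNA kit. STAR and the mouse build mm10 (GRCm38) are named in the submitters' processing notes. How reads were counted, whether by strand and with which annotation, is not given in the sources used here. The authors deposited 1 table of whole-number counts, 51912 genes by 7 libraries, without normalisation. Symbols, coordinates and transcript lengths came from GENCODE mouse release M21, which matched 51633 rows to a symbol.

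The analysis used edgeR 4.0.16 in R 4.3.3. Low counts were removed by filterByExpr on treatment, leaving 16504 genes, scaling used the trimmed mean of M values, and a robust quasi-likelihood model covered all 7 libraries. Benjamini-Hochberg adjustment of the two-sided F test ran over every gene tested, and calls were made at 0.05. A positive fold change means higher in AAV-Adipsin, or higher in treatment-named libraries with the treatment in the model. Another model added the interaction. Log2 CPM carried a prior count of 2. Shares of isoenzymes were tested by exact permutation over samples. The script was tested on simulated data. All 30 genes were named, with up to 6 genes past the threshold, or otherwise the 3 with the smallest p, from each pathway list in the first 2 comparisons. The 30 genes, the lists and the tests were chosen with earlier results of these data known. Alternatives were DESeq2 1.42.0, limma-voom (limma 3.58.1), other size factors, no filter, a block or batch term and libraries left out. The exon union as gene length was added after seeing the data. Intervals cover sampling of these mice as fitted, and the count floor covers counting error only.
One item looked at is not reported here.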

Additional observations from a re-analysis of the deposited data

How the results depend on the processing

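The limits are the 3 AAV-Adipsin mice, the 2 treatment-named libraries and, for Adm and Car9, the low counts. None of the 30 genes was called between the treatments under any alternative run, though Adm had no result without both treatment-named libraries. The 1 gene called in all was 0 without the low-count filter, with limma-voom and without both treatment-named libraries, and 4 with DESeq2. Leaving out 1 library gave 0 to 1. Without both treatment-named libraries, fold changes below 0 turned to 0.033 for Gpi1, 0.22 for Pfkl, 0.014 for Aldoa, 0.14 for Tpi1, 0.11 for Gapdh, 0.15 for Pgk1, 0.044 for Pgam1, 0.063 for Eno1, 0.014 for Pdk1, 0.079 for P4ha1 and 0.051 for Bnip3. With limma-voom Pfkl was 0.045 and Car9 -0.28, and the cause was not tested. Same-numbered libraries correlated at 0.66, -0.01 and 0.01 in their deviations from group means. The libraries at 0.66 share a description style, and deviations within a group sum to 0. These values therefore cannot show whether the numbers pair the mice. With the replicate block 1 gene and none of the 30 was called, and Car9 was -0.45.

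Leaving out 1 library at a time, these AAV-Adipsin over AAV-GFP fold changes crossed 0. They ran from -0.17 to 0.22 for Pfkl, -0.13 to 0.021 for Aldoa, -0.17 to 0.062 for Tpi1, -0.17 to 0.13 for Gapdh, -0.22 to 0.048 for Pgk1, -0.17 to 0.033 for Eno1, -0.21 to 0.049 for Eno2, -0.032 to 0.094 for Pkm, -0.096 to 0.32 for Slc2a1, -0.009 to 0.34 for Egln3, -0.019 to 0.066 for Kdm3a, -0.15 to 0.045 for P4ha1, -0.25 to 0.048 for Bnip3, -1.10 to 0.90 for Car9, -0.069 to 0.29 for Ankrd37 and -0.17 to 0.030 for Ndrg1. Share differences ran from -1.13 to 2.98 points for Pfkl, -5.54 to 0.0988 for Pfkm and -2.32 to 2.23 for Eno2.

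For description style, DESeq2 called 2528 genes, and DESeq2 and limma-voom each called 2 of the 30 (Eno2 and Ankrd37). Leaving out 1 library gave 39 to 4348 genes, 0 to 2 of the 30 and an enzyme median of -0.26 to 0.20. Where 1 treatment-named library was left, it was assumed to vary like the others. Fold changes that crossed 0 ran from -0.26 to 0.082 for Gpi1, -0.64 to 0.24 for Pfkp, -0.097 to 0.20 for Aldoc, -0.27 to 0.41 for Tpi1, -0.33 to 0.46 for Pgk1, -0.15 to 0.19 for Pgam1, -0.32 to 0.066 for Eno1, -0.092 to 0.27 for Pdk1, -0.080 to 0.93 for Adm, -0.10 to 0.005 for Egln1, -0.55 to 0.094 for Egln3, -0.20 to 0.26 for P4ha1, -0.012 to 0.60 for Bnip3, -0.40 to 0.003 for Higd1a and -3.08 to 0.016 for Car9.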

Other observations

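Hexokinase genes and the islet glucose-6-phosphatase were looked at after the other values were seen. Hk1, a high-affinity hexokinase, had 3.21 ± 0.753 CPM per kilobase of the longest coding transcript in the 3 AAV-Adipsin libraries and 2.74 ± 0.616 in the 4 AAV-GFP ones (mean ± SD), and Hk2 had 0.344 ± 0.1 in AAV-Adipsin and 0.284 ± 0.15 in AAV-GFP. G6pc2, the islet glucose-6-phosphatase subunit, had 580 ± 36.1 CPM per kilobase in AAV-Adipsin and 591 ± 41.7 in AAV-GFP, above Aldoa, the highest of the 30 genes.

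Lactate dehydrogenase and the lactate carrier, genes that mature beta cells are known to keep low, were also present. Ldha ranged from 7.5 to 36.5 CPM per kilobase over the 7 libraries, at 20.1, 66.3 and 30.8 CPM in AAV-Adipsin against 39, 13.6, 36.6 and 35.2 CPM in AAV-GFP. Its highest library, AAV-Adipsin 2, was also the highest for Car9 and for the macrophage and duct marker sums. The part of these sums was not tested. Slc16a1, the lactate carrier MCT1, had 0.8 ± 0.412 CPM per kilobase in AAV-Adipsin and 0.622 ± 0.19 in AAV-GFP.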
